A study of Mus musculus with 4 samples.

Results

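Hepcidin and the genes of hepatic iron handling were followed in the liver of mice labelled as Pnpla7 knockout or wild type. The set was named gene by gene and holds the hepcidins Hamp and Hamp2, the hepcidin inducer Bmp6, the pathway readouts Id1 and Smad7, the iron sensors Hfe and Tfr2, the iron exporter Slc40a1, the ferritin subunit Fth1 and the plasma iron carrier Trf. All 10 genes were found by name among 30026 genes on the array, through 11 of its 39429 probes. The mice were of strain C57BL/6N and had the genotype Pnpla7-/- (called KO here) or wild type (WT), at 3 weeks or 6 weeks of age. Each of the 4 groups was 1 one-colour array of liver RNA pooled in equal parts from 5 animals, so no group had a replicate and the spread between animals was not measured. The labels do not say which part of Pnpla7 was deleted, or in which cells.

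Hepcidin is a peptide hormone that hepatocytes release into the blood. It binds ferroportin, the product of Slc40a1 and the iron exporter of macrophages, enterocytes and hepatocytes, and makes cells take ferroportin up and degrade it, which lowers the entry of iron into plasma. Sinusoidal endothelial cells of the liver make BMP6, which acts with the co-receptor hemojuvelin on hepatocytes, and the SMAD proteins it activates switch on Hamp together with Id1 and the feedback inhibitor Smad7. HFE and transferrin receptor 2 report the iron load of plasma transferrin to the same pathway, and interleukin-6 induces Hamp through STAT3. The mouse has a second hepcidin gene, Hamp2, next to Hamp, whose peptide is not known to act on iron in the way that of Hamp does.

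The promoters of Hamp and Hamp2 are shown because these neighbouring copies had the widest range of signals over the 4 arrays. Both are the 250 bases before the annotated start, from RefSeq on build GRCm38.p6, on the minus strand: chr7:30944030-30944279 for Hamp and chr7:30924182-30924431 for Hamp2. Capitals mark 2 stretches, GGCGCC in Hamp with the bases aligned to it in Hamp2, and TTCTTGGAA.
Hamp: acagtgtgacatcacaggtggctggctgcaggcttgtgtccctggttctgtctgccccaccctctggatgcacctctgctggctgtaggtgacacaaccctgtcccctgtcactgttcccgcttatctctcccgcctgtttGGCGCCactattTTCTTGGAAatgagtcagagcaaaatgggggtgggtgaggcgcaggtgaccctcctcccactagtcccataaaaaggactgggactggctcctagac
Hamp2: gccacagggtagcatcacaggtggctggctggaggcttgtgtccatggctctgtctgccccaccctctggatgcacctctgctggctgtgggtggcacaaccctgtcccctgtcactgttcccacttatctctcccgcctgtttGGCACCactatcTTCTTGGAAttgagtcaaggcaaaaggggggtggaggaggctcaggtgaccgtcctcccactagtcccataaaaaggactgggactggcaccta
Over the windows reaching 50 bases past the start, 276 of 297 aligned bases were identical (92.9%), with 21 substitutions and no gap.

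GGCGCC is known as the core of the BMP-responsive element of the hepcidin promoter, and TTCTTGGAA as its STAT3 element. Both motifs were searched by their letters on both strands, together with TTCNNNGAA, the general STAT pattern, of which TTCTTGGAA is an instance. The Hamp window held GGCGCC at positions −109 to −104 from the start. The aligned bases of Hamp2 read GGCACC, a G145A substitution counted from 1 at the 5′ end of the Hamp window. TTCTTGGAA stood in both windows, at −97 to −89 in Hamp and at −94 to −86 in Hamp2. Of 32851 promoter windows of the same length, 11.9% held GGCGCC, 8.30% held TTCNNNGAA and 0.417% held TTCTTGGAA. Promoter windows were also at hand for Bmp6, Hfe, Tfr2 and Fth1, and none of them held GGCGCC or TTCNNNGAA in these letters. A match is a description of the sequence and does not show binding.

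The array reads the hepcidins through probes that are also alike, which bears on how far their signals can be told apart. They lie on the minus strand of build mm9 at chr7:31727490-31727549 for Hamp and chr7:31707520-31707579 for Hamp2. Capitals mark the bases that differ.
Hamp probe: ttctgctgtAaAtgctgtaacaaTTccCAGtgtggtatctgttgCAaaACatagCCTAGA
Hamp2 probe: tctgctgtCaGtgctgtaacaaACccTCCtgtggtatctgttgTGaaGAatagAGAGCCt
Of 59 aligned bases 42 were identical, and the longest identical run was 14 bases. Whether transcripts of one hepcidin bind the probe of the other was not tested. Positions in the same build are given for the probes of 7 of the other members, with that of Smad7 not given here, and are chr13:38591479-38591538 (Bmp6), chr2:152563083-152563142 (Id1), chr13:23795710-23795769 (Hfe), chr5:138028646-138028705 (Tfr2), chr1:45965255-45965314 (Slc40a1), chr19:10059485-10059544 (Fth1) and chr9:103111207-103111266 and chr9:103112826-103112885 (Trf).

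All members were bright enough to measure. The 44 values of the 11 probes on the 4 arrays were all well above background, and none was an outlier or saturated spot. A signal of 1 is the 75th percentile of all spots on that array. The scanner software's error model put the SD of each member's signal at 10% to 10.4% of the signal, which gives a log2 ratio of 2 arrays an SD of about 0.20. The spread between repeated spots of other probes, each printed 10 times, gave the log2 ratio of KO to WT an SD of 0.0952 (3 weeks) or 0.118 (6 weeks). For each array the median over 279 to 295 such probes was taken. Each member probe had 1 spot per array, so this SD is not the member's own. Both SDs are technical and leave out differences between pools of animals. Changes are therefore described by their size, with 2-fold as the threshold, or 4-fold for the difference of the KO/WT ratio between ages. In bulk liver RNA, fewer cells of a type and less RNA per cell cannot be told apart.

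Facts of the arrays that touch every comparison were as follows. Pnpla7 itself had signals of 7.54 in WT and 6.70 in KO at 3 weeks, a log2 ratio of −0.17, and of 9.65 in WT and 4.42 in KO at 6 weeks, a log2 ratio of −1.13. The Pnpla7 signal thus did not mark the array labelled KO at 3 weeks, and its probe checks the labels only if it lies in the deleted part. KO below means the array so labelled. Hepatocyte markers were well above background on all arrays, 8 of 8, with summed signals of 1478 to 1631. Of 25 skeletal muscle markers, 24 were at least 2-fold higher in KO at 3 weeks and 23 at 6 weeks, with summed signals of 1.89 in WT against 77.5 in KO at 3 weeks and 3.10 against 53.2 at 6 weeks. Of all genes, 2.86% were at least 2-fold higher in KO at 3 weeks and 6.49% at 6 weeks. The part of the muscle signal in the results that follow was not tested.

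The 2 hepcidins had the widest range of the 10 genes over the 4 arrays. Both were several-fold higher at 6 weeks than at 3 weeks in WT and in KO, and at 3 weeks Hamp2 was lower in KO. Hamp, the hormone gene, had a signal of 10.17 ± 1.02 in WT and 7.69 ± 0.769 in KO at 3 weeks, and of 53.8 ± 5.38 in WT and 52.5 ± 5.25 in KO at 6 weeks (± modelled SD of 1 array). Hamp2 had a signal of 33.0 ± 3.30 in WT and 10.98 ± 1.098 in KO at 3 weeks, and of 126.4 ± 12.6 in WT and 143.3 ± 14.3 in KO at 6 weeks. For both genes the arrays at 3 weeks were low and those at 6 weeks high, and the lowest of the 4 was KO at 3 weeks.

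**Figure D1:**
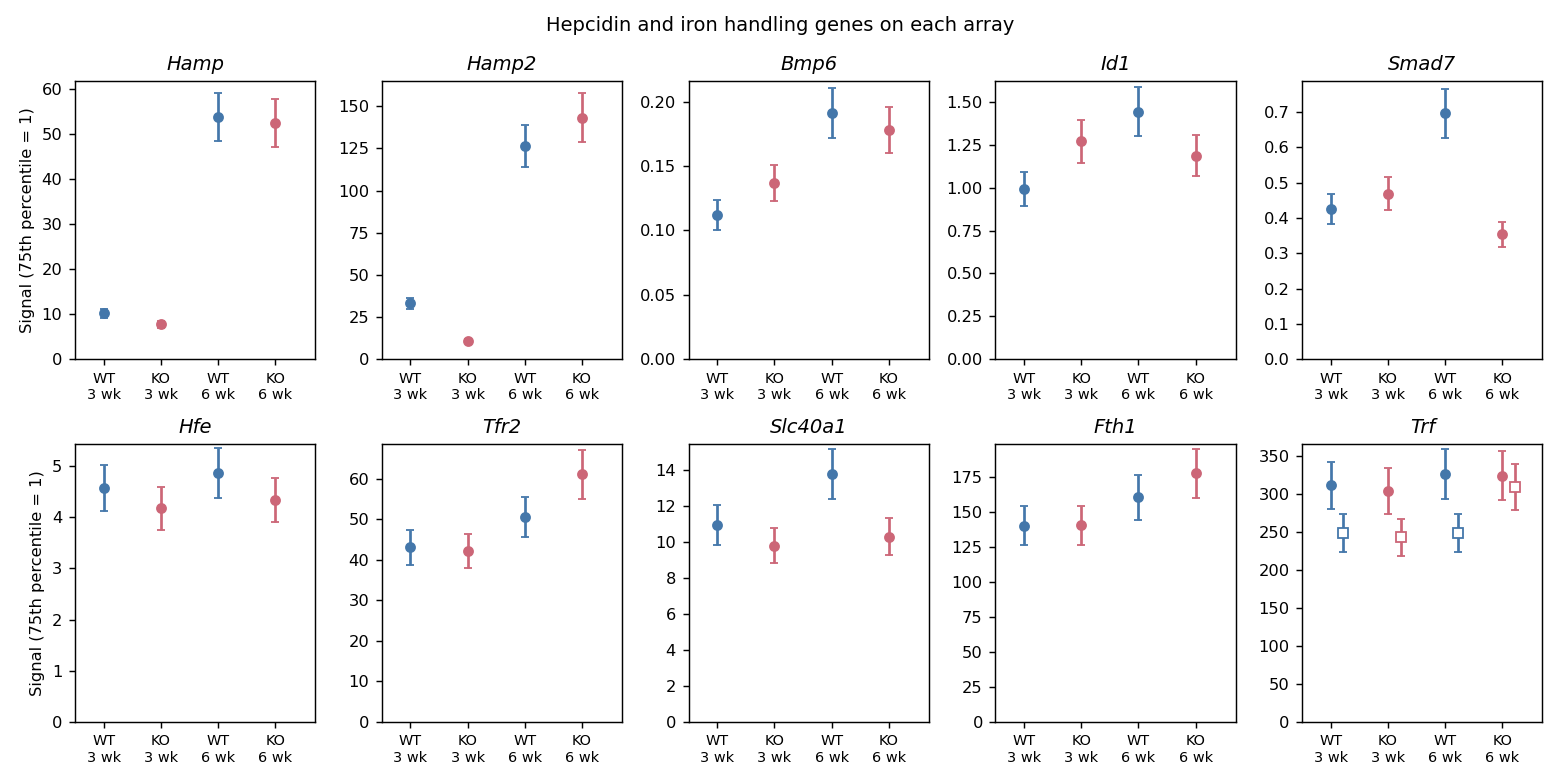
Signal of each of the 10 genes on each of the 4 arrays, scaled so that 1 is the array's 75th percentile, with a panel and a linear scale from 0 per gene; blue is WT, red is KO, points are single arrays and bars the modelled SD. Open squares are the second Trf probe. Hamp and Hamp2 stand far higher at 6 weeks than at 3 weeks, and Smad7 is highest on the WT array at 6 weeks.

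From 3 to 6 weeks, Hamp was 5.29-fold higher in WT and 6.82-fold higher in KO, which are log2 differences of 2.40 and 2.77. Hamp2 was 3.82-fold higher in WT and 13.05-fold higher in KO, log2 differences of 1.94 and 3.71. These were the only members past 2-fold with age, 2 of 10 higher in each genotype and none lower, where 3.64% of all genes were higher in WT and 6.02% in KO (9.5% and 12.3% in either direction). The shares of genes with a rise at least as large were 0.742% in WT and 0.765% in KO for Hamp, and 1.13% and 0.328% for Hamp2. Each age was 1 pool per genotype, so the age of the animals and any other difference between those pools cannot be told apart.

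**Figure D2:**
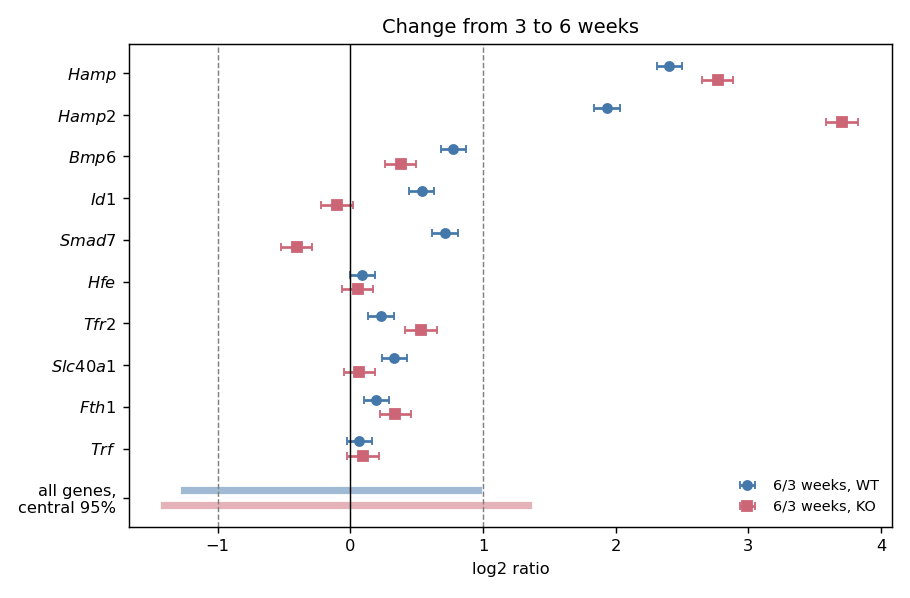
log2 ratio of the 6-week array to the 3-week array for each gene, in WT (circles) and KO (squares). Bars are the SD from repeated spots of other probes, dashed lines mark 2-fold, and the thick lines at the foot span the central 95% of all genes. Hamp and Hamp2 lie beyond 2-fold in both genotypes, while Id1 and Smad7 lie above 0 in WT and below 0 in KO.

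Between genotypes, 1 of 10 members passed 2-fold at 3 weeks and none at 6 weeks, where 5.76% and 11% of all genes did so in either direction. That member was Hamp2, 3.01-fold lower in KO at 3 weeks (log2 −1.59 ± 0.0952, SD from repeated spots of other probes). Among all genes, 2.9% were at least 2-fold lower at 3 weeks and 1.42% were at least as low as Hamp2. Hamp had a log2 ratio of −0.40 at 3 weeks, inside the threshold. At 6 weeks the KO/WT log2 ratio was −0.04 for Hamp and 0.18 for Hamp2. The KO/WT ratio of Hamp2 thus differed between ages by 1.77 on the log2 scale, or 3.41-fold, short of the 4-fold threshold. No member passed that threshold, and 1.52% of all genes did, 0.837% with the higher ratio at 6 weeks and 0.684% with the lower. For Hamp the same difference was 0.37. Relative to Hamp on the same arrays, the ratio of Hamp2 was lower by 1.19 on the log2 scale at 3 weeks (−1.19) and higher by 0.22 at 6 weeks. With 1 array per group these differences have no replicate check.

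**Figure D3:**
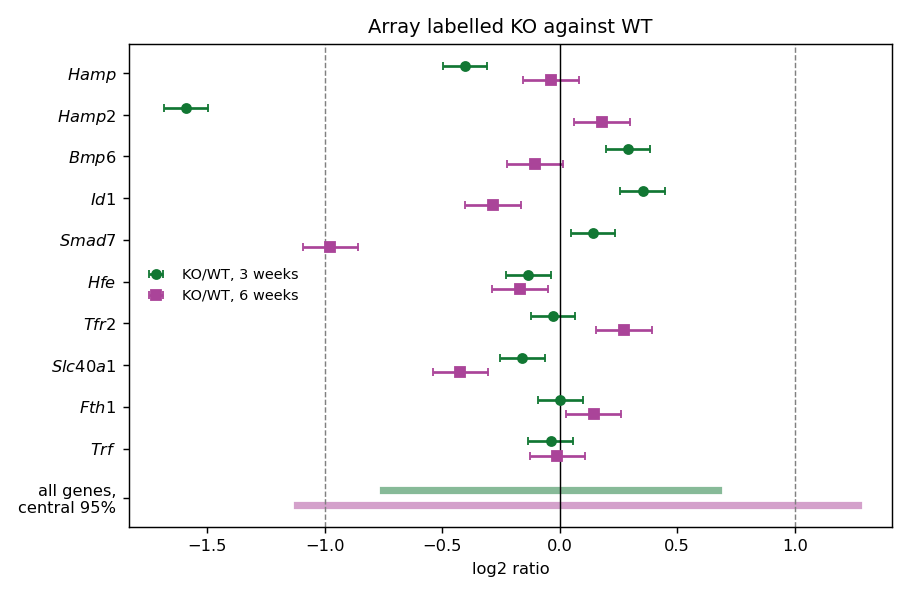
log2 ratio of the KO array to the WT array for each gene at 3 weeks (circles) and 6 weeks (squares). Bars are the SD from repeated spots of other probes, and dashed lines mark 2-fold. The thick lines at the foot span the central 95% of all genes, from −0.75 to 0.67 at 3 weeks and from −1.12 to 1.27 at 6 weeks. Hamp2 at 3 weeks lies past 2-fold and Smad7 at 6 weeks lies just inside it.

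The genes whose 4 values ran most like those of the hepcidins were sought by the root mean square distance of centred log2 profiles. The search ran over 14142 genes well above background on every array. It left out predicted genes (Gm and LOC names), Rik clones and names that are accessions, so the ranks hold for the genes kept. With 4 arrays this is a description only. Nearest to Hamp2 were Gbp2b (0.196), Mme (0.256), Orm1 (0.278), Orm2 (0.343) and Wdr93 (0.397), with Hamp at rank 6 (0.443 apart, rounded from 0.4425). Orm1 and Orm2 encode orosomucoids, acute-phase proteins of plasma, and Mme the membrane protease neprilysin. Orm1 had a signal of 5.51 in WT and 2.46 in KO at 3 weeks and of 19.2 and 34.4 at 6 weeks. Nearest to Hamp were Snhg11 (0.178), Sntg2 (0.257), Impg2 (0.262), Wdr93 (0.265) and Unc79 (0.289), with Hamp2 at rank 22. The signals of those nearest genes were faint, from 0.0181 (Wdr93 in KO at 3 weeks) to 0.283 (Sntg2 in WT at 6 weeks). Gbp2b and Mme were faint as well, at 0.02535 and 0.0187 in KO at 3 weeks.

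Bmp6, the ligand that drives hepcidin in iron loading, had signals of 0.112 in WT and 0.137 in KO at 3 weeks and of 0.191 and 0.178 at 6 weeks. Its KO/WT log2 ratio was 0.29 at 3 weeks and −0.10 at 6 weeks, and its 6/3-week log2 ratio 0.78 in WT and 0.38 in KO. Both 6-week arrays were above both 3-week arrays, with all ratios inside 2-fold. Id1, an inhibitor of basic helix-loop-helix factors and a standard readout of BMP signalling, had signals of 0.995 in WT and 1.27 in KO at 3 weeks and of 1.45 and 1.19 at 6 weeks. Its KO/WT log2 ratio was 0.35 at 3 weeks and −0.28 at 6 weeks, and WT at 6 weeks was the highest array.

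Smad7 encodes the inhibitory SMAD that switches the receptors off again. Its signal was 0.424 in WT and 0.468 in KO at 3 weeks, and 0.696 in WT and 0.354 in KO at 6 weeks. WT at 6 weeks was the highest of the 4 arrays and KO at 6 weeks the lowest. The KO/WT ratio at 6 weeks was 1.97-fold lower (log2 −0.98 ± 0.118, SD from repeated spots of other probes), just inside the threshold. Of all genes, 4.74% were at least as low. At 3 weeks the log2 ratio was 0.14, so that the ratio differed between ages by −1.12 on the log2 scale, where 2.75% of genes were at least as far on that side.

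Other target genes of BMP and SMAD signalling were taken as a list of 10 that holds neither Id1 nor Smad7. At 6 weeks 8 could be measured, of which 3 were at least 2-fold lower in KO and none higher, against 4.54% of all genes lower, and 7 of 8 lay below 0 with a median log2 ratio of −0.37 (0.05 over all genes). The 3 were Id3 (−1.15), Id4 (−1.14) and Atoh8 (−1.05). With normexp background correction and quantile normalization only Id3 stayed past 2-fold (1 of 8), and 7 of 8 were below 0 there too, with a median of −0.39. Id3 and Id4 are relatives of Id1, and ATOH8 is a transcription factor known to act on the Hamp promoter. The Id3 signal was 3.64 in WT and 3.51 in KO at 3 weeks and 6.08 and 2.74 at 6 weeks. That of Atoh8 was 0.190 and 0.338 at 3 weeks and 0.595 and 0.288 at 6 weeks. In both, WT at 6 weeks stood above the other arrays. Id4 had 0.0927 and 0.0817 at 3 weeks and 0.0977 and 0.0442 at 6 weeks, and KO at 6 weeks stood below the other arrays. Id2 had a log2 ratio of −0.57 at 6 weeks, Gata2 −0.16 and Hey1 −0.04, and the inhibitory Smad6, named after its values were seen, had 0.05. At 3 weeks none of 9 measured genes passed 2-fold in KO against WT, and the median was 0.13. From 3 to 6 weeks only Atoh8 passed 2-fold upward in WT (log2 1.65) and only Hey1 downward in KO (−1.55), against 3.64% and 6.26% of all genes. With age 6 of 8 measured genes lay above 0 in WT (median 0.30). In KO 7 of 9 lay below 0 (median −0.23, 1 of them a bound). These comparisons share arrays. KO against WT at 6 weeks shares the WT array at 6 weeks with the age ratio in WT. It shares the KO array at 6 weeks with the age ratio in KO.

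**Figure D4:**
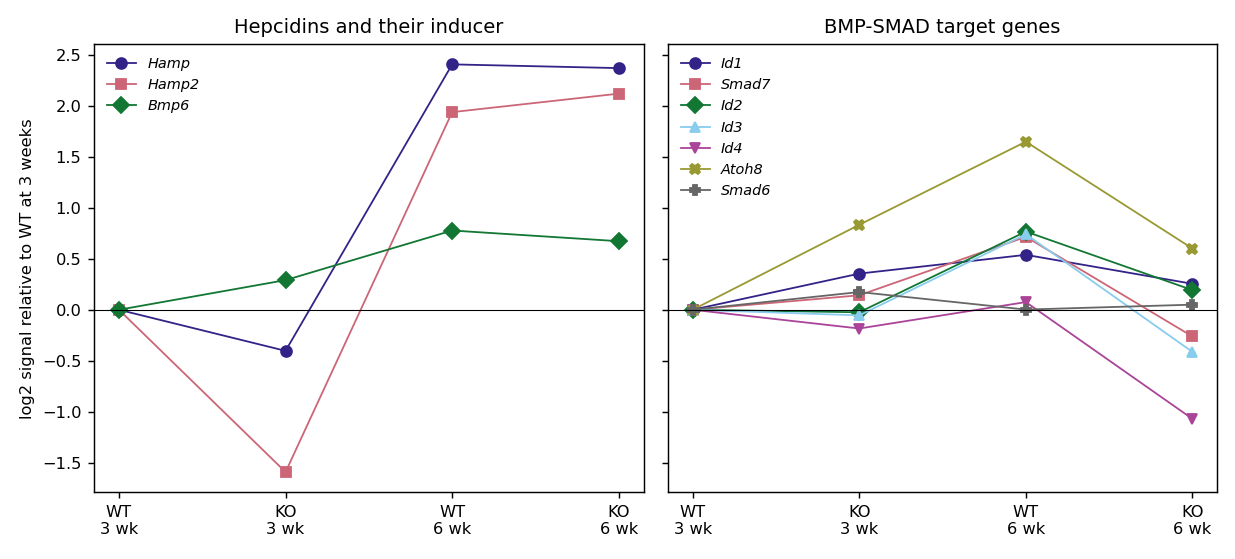
log2 signal of each gene on the 4 arrays relative to the WT array at 3 weeks, for the hepcidins and Bmp6 (left) and for 7 BMP-SMAD target genes (right); the thin lines only join the points of a gene. Hamp and Hamp2 are high on both 6-week arrays, whereas Id1, Id2, Id3, Atoh8 and Smad7 are highest on the WT array at 6 weeks and lower on the KO array at that age.

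Markers of some other liver cells were also lower in KO at 6 weeks. At that age 4.54% of all genes were at least 2-fold lower in KO and 6.49% higher, and the median log2 ratio over all genes was 0.05. The 12 markers of sinusoidal endothelium, the cells that make BMP6, had a median KO/WT log2 ratio of −0.43 at 6 weeks, with 10 below 0 and 1 at least 2-fold lower, and summed signals of 60.1 in WT and 46.9 in KO. At 3 weeks their median was 0.09. The 12 markers of Kupffer cells, the resident macrophages, had a median of −0.82 at 6 weeks, with all 12 below 0 and 3 at least 2-fold lower, and summed signals of 87.9 and 49.3. At 3 weeks the Kupffer cell median was −0.07. The 10 markers of stellate cells, the pericytes of the liver, had a median of −0.52 at 6 weeks, with 8 below 0, 2 at least 2-fold lower (the collagen genes Col1a1 and Col3a1) and 1 higher (Des, which is also a muscle gene), and summed signals of 91.1 in WT and 80.2 in KO. At 3 weeks the stellate cell median was 0.11. All markers of the endothelial, Kupffer cell and stellate cell lists were well above background on the 4 arrays. The medians at 6 weeks were −0.19 for lymphocyte, −0.05 for erythroid, 0.09 for neutrophil and 0.10 for cholangiocyte markers. None of the markers measured in those lists was at least 2-fold lower, while 3 erythroid markers (2 as bounds) and 1 neutrophil marker were at least 2-fold higher. Id1, Id3 and Smad7 are not specific to hepatocytes, and the part of these cells in the values above was not tested.

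Hfe and Tfr2, which sense transferrin-bound iron, stayed inside 2-fold between genotypes and with age. Hfe had signals of 4.58 in WT and 4.17 in KO at 3 weeks and of 4.87 and 4.34 at 6 weeks, with KO/WT log2 ratios of −0.13 and −0.17. Tfr2 had signals of 43.1 and 42.2 at 3 weeks and of 50.6 and 61.1 at 6 weeks, with log2 ratios of −0.03 and 0.27. For Hfe both KO arrays lay below both WT arrays, and the ratio within each age was smaller than its modelled SD. For Tfr2 the highest array was KO at 6 weeks, whose ratio to WT ranged from 0.03 to 0.27 over the ways of scaling the arrays. The 6/3-week log2 ratio of Tfr2 was 0.23 in WT and 0.53 in KO, the latter from 0.28 to 0.58 over those ways.

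Of the other regulators of hepcidin, a list of 35 ligands, receptors, SMADs, antagonists and proteases, 33 could be measured. Erfe, the erythroid hormone that lowers hepcidin, and Bmpr1b were not well above background on any array. At 3 weeks 3 of 33 were at least 2-fold higher in KO and none lower, against 2.86% of all genes higher, with a median log2 ratio of 0.00. They were Fst (1.48), whose product follistatin binds activins, Inhbb (1.25), which encodes the subunit of activin B, and Egfr (1.12). At 6 weeks the interleukin-6 receptor gene Il6ra was higher (1.24) and the stress cytokine gene Gdf15 lower (−1.60), 1 in each direction. This stands against 6.49% of all genes higher and 4.54% lower, and the list's median was −0.01. Fst had a signal of 1.04 in WT and 2.89 in KO at 3 weeks and of 0.917 and 0.893 at 6 weeks, so it was high on 1 array only. From 3 to 6 weeks Smad9 alone was past 2-fold in WT (1.31, higher) and Fst (−1.70) and Gdf15 (−1.20) in KO, both lower. Of all genes, 3.64% were at least 2-fold higher with age in WT and 6.26% lower in KO.

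Hemojuvelin and the protease that cleaves it stand next to the BMP receptor and were named after their values were seen. Hjv had signals of 1.19 in WT and 0.983 in KO at 3 weeks and of 1.06 and 1.22 at 6 weeks. Hjv is also known as a gene of skeletal muscle, whose markers were higher in KO at both ages, and the KO/WT log2 ratio of Hjv was −0.28 at 3 weeks and 0.21 at 6 weeks. The part of muscle RNA in it was not tested. Tmprss6, the protease, had KO/WT log2 ratios of −0.10 (3 weeks) and −0.08 (6 weeks).

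Slc40a1, which encodes ferroportin, had signals of 10.9 in WT and 9.78 in KO at 3 weeks and of 13.7 and 10.3 at 6 weeks. The WT array at 6 weeks was the highest, and the KO/WT log2 ratios of −0.16 and −0.42 stayed inside 2-fold. Kupffer cells express ferroportin strongly, and the median of their markers given above was −0.07 at 3 weeks and −0.82 at 6 weeks. What part the Kupffer cell markers have in the Slc40a1 values was not tested.

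Fth1, the heavy subunit of ferritin, which stores iron in the cell, had signals of 140.2 in WT and 140.5 in KO at 3 weeks and of 160.8 and 177.8 at 6 weeks. Its KO/WT log2 ratios were 0.00 and 0.14, within the modelled SD. Fth1 has near-identical processed copies in the genome, so its signal may hold more than 1 transcript. Trf, the gene of transferrin, had 2 probes. The brighter, used here, read 312 in WT and 304 in KO at 3 weeks and 327 and 325 at 6 weeks. The other read 249 and 243 at 3 weeks and 249 and 309 at 6 weeks. Their KO/WT log2 ratios were alike at 3 weeks, −0.04 and −0.03, and apart at 6 weeks, −0.01 and 0.31, so the probes disagree for the KO array at 6 weeks. Both ferritin and transferrin genes thus held their signals within 1.5-fold on all arrays.

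Of 23 other genes of iron uptake, storage and release 21 could be measured, and Cybrd1 and Hephl1 were not well above background on any array. At 6 weeks 1 of 21 was at least 2-fold higher in KO and none lower, against 6.49% of all genes higher and 4.54% lower. It was Lcn2, which encodes a siderophore-binding protein of the acute phase, with a log2 ratio of 3.14 and signals of 4.80 in WT and 5.77 in KO at 3 weeks and of 1.09 and 9.62 at 6 weeks. WT at 6 weeks was the lowest array for Lcn2 and KO at 6 weeks the highest. At 3 weeks the 1 gene past 2-fold, against 2.86% of all genes higher, was the mitochondrial ferritin gene Ftmt. Its log2 ratio was a bound of at least 1.47, since it was not well above background in WT. At 6 weeks Ftmt was not well above background in KO, with a bound of at most −0.999. It was counted as inside 2-fold there but may lie past it. Its signals were faint, 0.0173 in WT and 0.0478 in KO at 3 weeks and 0.0322 and 0.0161 at 6 weeks. The next largest at 6 weeks among genes well above background in both WT and KO were Slc39a14 (0.60), a transporter of iron not bound to transferrin, Ncoa4 (0.57), the receptor that sends ferritin to be degraded, and Heph (−0.55), an iron oxidase. The list's median KO/WT log2 ratio was −0.02 at 3 weeks and −0.00 at 6 weeks.

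With age, 3 genes of this list were at least 2-fold lower in WT and 4 in KO, against 5.85% and 6.26% of all genes, and none was higher. Only Tfrc and Ltf were so in both genotypes. Lcn2 passed in WT only (log2 −2.14, against 0.74 in KO). Heph (−1.13) and Ftmt (a bound of at most −1.57) passed in KO only. Tfrc, the transferrin receptor through which cells take up iron and a gene named after its values were seen, had signals of 1.65 in WT and 1.59 in KO at 3 weeks and of 0.471 and 0.503 at 6 weeks. Its 6/3-week log2 ratios were −1.81 in WT and −1.66 in KO. Ltf, the lactoferrin gene of neutrophils, had −3.26 and −2.62, or −1.72 and −1.24 with normexp and quantile normalization. Red cell precursors carry much transferrin receptor. The erythroid markers had summed signals of 446 in WT and 398 in KO at 3 weeks and of 44.9 and 39.9 at 6 weeks, with median 6/3-week log2 ratios of −2.41 in WT and −2.46 in KO (−2.455 before rounding) and bounds counted at their value. Of 12 erythroid markers measured, 10 were at least 2-fold lower with age in WT and 7 in KO. The neutrophil markers had summed signals of 8.54 and 6.34 at 3 weeks and of 3.49 and 3.56 at 6 weeks. What part these cells have in the age differences of Tfrc, Ltf and the hepcidins was not tested.

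**Figure D5:**
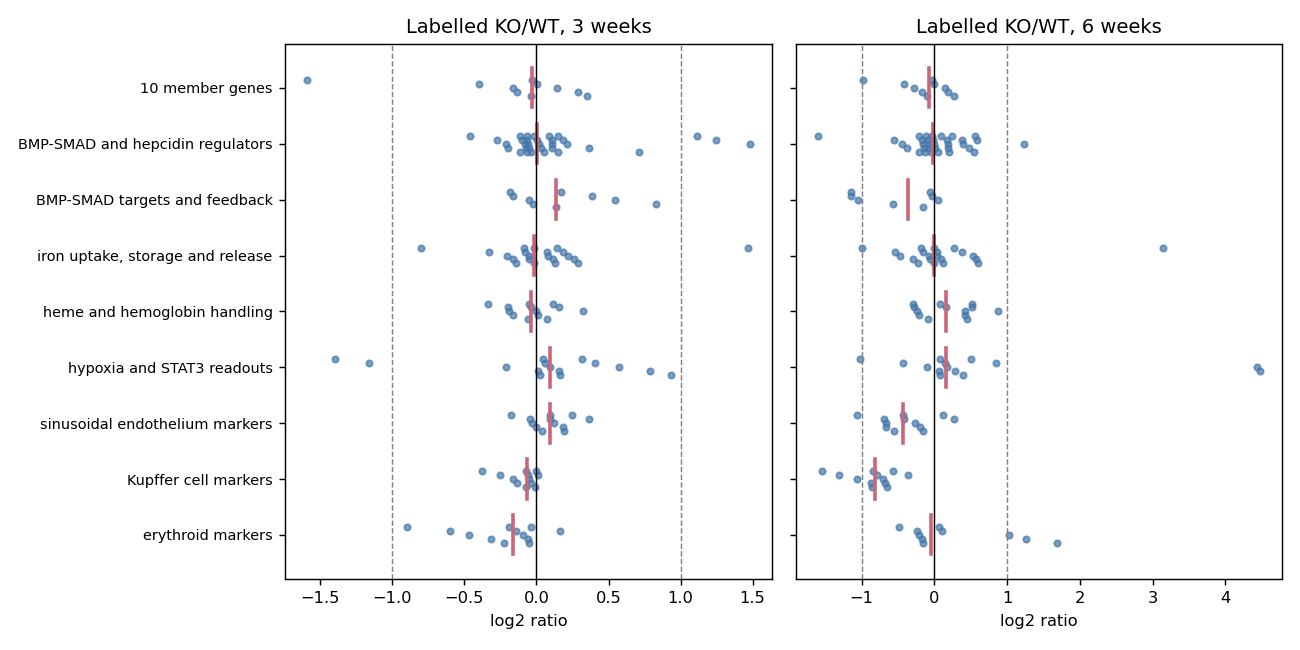
KO/WT log2 ratios of single genes (points) at 3 weeks (left) and 6 weeks (right) in the 10 member genes, 5 lists of related genes and 3 lists of cell markers; red bars are list medians, dashed lines mark 2-fold, and bounds are drawn at their value. Kupffer cell markers lie below 0 at 6 weeks, 12 of 12, and Saa1, Saa2 and Lcn2 are the points beyond 3 on the log2 scale.

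Readouts of STAT3 and hypoxia were a list of 15, since both signals act on Hamp. At 6 weeks 2 of 14 measured genes were at least 2-fold higher in KO, the serum amyloid genes Saa1 (log2 4.44) and Saa2 (4.48), and 1 was lower, the carbonic anhydrase gene Car9 (−1.02, but −0.69 with normexp and quantile normalization), against 6.49% of all genes higher and 4.54% lower. Saa1 had signals of 7.88 in WT and 13.6 in KO at 3 weeks and of 6.68 and 144.8 at 6 weeks. On the same KO array at 6 weeks the Hamp signal was 52.5, against 53.8 in WT. At 3 weeks 2 of 15 were lower, Orm1 (−1.17) and the erythropoietin gene Epo (a bound of at most −1.40, not well above background in KO), against 2.9% of all genes, and none was higher. Socs3, the feedback inhibitor that STAT3 induces, was named after its values were seen and had KO/WT log2 ratios of 0.06 and 0.08. Egln3, a hypoxia readout of the list, had 0.57 at 3 weeks and −0.10 at 6 weeks. Of the measured genes, 12 of 15 lay above 0 at 3 weeks and 11 of 14 at 6 weeks. The list's median was 0.09 at 3 weeks and 0.16 at 6 weeks.

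A model of age and genotype over the 4 arrays, with 1 residual degree of freedom, was fitted with limma to 22646 genes, with Benjamini-Hochberg adjustment over all of them. It called none of the 10 members at an adjusted p under 0.05, and 0 of all genes (0%); at an unadjusted p under 0.05 it took none of the members and 4.45% of genes. The smallest adjusted p of a member was 0.914, and the smallest over all genes 0.468. Among the members 4 had higher and 6 lower fitted values in KO. The residual of a gene in this model is the difference of its KO/WT ratio between ages, not a spread between animals or pools. A gene whose ratio differed between ages thus had a larger error. A p that misses the threshold in this design does not show that the members were alike in KO and WT.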

How the data were processed

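Total RNA of mouse liver, pooled from 5 animals per group, was hybridised to 4 one-colour (Cy3) Agilent arrays, which sat on 1 slide (per the labels' protocols; per the file headers). Each deposited intensity is the processed signal of Agilent Feature Extraction, version 11.5.1.1 in the submitters' processing notes, which took off the background and scaled no array to another, per the file headers. The spot flags (outlier, saturated, well above background) are other deposited values of 0 or 1. The authors' value table equals the same intensity over each array's 75th percentile, with column medians of 0.0878 (WT, 3 weeks), 0.0896 (KO, 3 weeks), 0.0853 (WT, 6 weeks) and 0.0864 (KO, 6 weeks). Of 43020 non-control spots, 66.7% to 71.4% exceeded background clearly by that flag.

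From there, log2 of the processed intensity minus log2 of the array's 75th percentile was used, outlier spots (189 to 252 per array) were left out, spots of one probe were averaged, and the brightest probe stood for a gene. Probes were named through a RefSeq gene table of build GRCm38.p6 (27508 by accession, 3544 by symbol, 404 by synonym), and 7973 kept the name in the file. A ratio needed 1 of its 2 arrays to flag the gene well above background. With the other array dim, the ratio is a bound, taken against that array's faintest flagged probe or the dim gene itself, whichever was brighter. The model of age and genotype used limma 3.58.1 (R 4.3.3). Only this model and the 2-fold counts of KO against WT were tried on simulated data, not the other steps. The remaining work was done in Python 3.11.15 with pandas 2.3.3, numpy 2.4.6 and Biopython 1.88.

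The members, the lists and the tests were chosen with earlier results of these data known. All 10 members are named, with the values of all their probes. Of each pathway list, up to 6 genes with the largest KO/WT log2 ratio at either age are named, and of each hepcidin the 5 genes with the nearest profile; other genes are said to be named after their values were seen, or passed the threshold with age. Alternatives were normexp (offset 50) with quantile normalization, quantile normalization alone, median scaling, the authors' value table, the background flag asked of all 4 arrays or of none, all probes of a gene averaged, outlier spots kept, other thresholds (1.5-fold and 3-fold for ratios, 2-fold and 8-fold for differences between ages), and limma with a trended prior or with no age term. Precision is limited by having 1 array per group.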

Additional observations from a re-analysis of the deposited data

Results flagged for a closer look

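Id1 had a KO/WT log2 ratio of 0.35 at 3 weeks and of −0.28 at 6 weeks, opposite signs. Each exceeds the modelled SD of a ratio of about 0.20, which is technical and leaves out the spread between pools. The difference was not tested, since each group was 1 array. Smad7 had a 6/3-week log2 ratio of 0.71 in WT and of −0.40 in KO, also with opposite signs, and that difference was not tested either.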

How the results depend on the processing

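No paired analysis was possible because each group was 1 array and the labels carry no replicate numbers; for the same reason no replicate could be left out. The background filters, the outlier spots and the authors' value table could not move a member's ratio, and averaging probes could move only Trf. Under the 3 other scalings 150 ratios of the members were recomputed, of which 120 moved by less than the SD of repeated spots and 30 by more. None crossed its threshold, and 39 of 50 ratios kept their sign under these scalings and the average of probes. The KO/WT log2 ratio of Hamp2 at 3 weeks ranged from −1.62 to −1.57 (−1.575 before rounding), and that of Smad7 at 6 weeks from −0.995 to −0.86. Values near 0 changed sign, among them Hamp2 in KO against WT at 6 weeks (−0.03 with quantile normalization). At a threshold of 1.5-fold 1 member passed in KO against WT at 6 weeks (Smad7), where 22.85% of all genes did, and 4 passed from 3 to 6 weeks in WT, where 18.95% did. At 2-fold 2 members passed for the difference between ages (Hamp2 and Smad7), where 7.53% of all genes did. Of all genes, with normexp and quantile normalization 2.41%, 4.91%, 4.14% and 5.94% passed 2-fold in KO against WT at 3 and 6 weeks and from 3 to 6 weeks in WT and KO, against 5.76%, 11%, 9.5% and 12.3% as reported. With the filter on all 4 arrays these were 2.18%, 6.74%, 5.44% and 8.32%. The pathway lists were recomputed under the 3 other scalings, by a choice made after seeing the data, over genes well above background on all 4 arrays. Of 120 counts past 2-fold, 118 stayed within 1.5 times the count of the same genes as scaled here. The exceptions, both with normexp, were the BMP-SMAD targets (1) and the hypoxia and STAT3 readouts (0) lower in KO at 6 weeks. Counts that rest on bounds, such as those of Ftmt and Epo, were not tried under these scalings. With a trended prior, limma called 0.0177% of genes and no member. No difference between pools of animals can be measured at 1 array per group.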

Other observations

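The genes of heme and hemoglobin handling, a list of 13 that holds the scavengers of free heme, were all measured and none passed 2-fold in KO against WT at either age or between ages in either genotype. Their median KO/WT log2 ratio was −0.04 at 3 weeks and 0.16 at 6 weeks. The largest at 6 weeks was Flvcr2 (0.88), which encodes a membrane transporter, with signals of 0.564 in WT and 0.594 in KO at 3 weeks and of 0.592 and 1.09 at 6 weeks. Hpx (0.52) and Hp (0.51), the plasma scavengers of heme and hemoglobin, followed, and then Alas1 (0.45), the first enzyme of heme synthesis, Hmox2 (0.42), a heme oxygenase, and Cd163 (0.42), the macrophage receptor for hemoglobin bound to haptoglobin. These 6 were named for their size; of all 13, the KO/WT log2 ratio at 6 weeks was above 0 in 8 and below 0 in 5.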
